A study of Ambystoma mexicanum with 6 samples.

Results

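AHNAK and calpastatin RNA was followed in regenerating axolotl limbs as 6 assembled transcripts of 3 assembled genes, out of 1554055 transcripts and 1388798 assembled genes in the matrix. Assembled genes c1004206_g1 and c1073873_g2 both have human AHNAK (AHNK_HUMAN) as their best blastx hit, and c1078848_g4 has human calpastatin (ICAL_HUMAN). Every transcript of these 3 assembled genes was taken, and all 6 passed the filter of at least 1 TPM in at least 3 libraries. They were chosen on their values in the same iMDK and DMSO libraries, so their differences are given as a description and no p-value is attached to them. Limbs of juvenile white axolotls (Ambystoma mexicanum) were amputated, and the animals were kept from the day of amputation in iMDK, a small molecule used to inhibit the growth factor midkine, or in its solvent DMSO. Poly(A) RNA was sequenced at 11 days post-amputation (dpa) from 3 iMDK-treated limbs (iMDK 1 to 3) and 3 DMSO-treated limbs (DMSO 1 to 3), with every replicate a limb of its own animal as the study states. The comparison asks how these transcripts differ between iMDK-treated and DMSO-treated limbs. The study could not discount non-specific effects of iMDK, whose direct target is unknown. The part of midkine in any difference was therefore not tested. The labels give no transgene or mutation in either group.

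AHNAK is a giant scaffold protein built largely of repeated units. It lies under the plasma membrane of epithelial and muscle cells, where it binds actin and the complex of annexin A2 with S100A10, and it was first described in skin as desmoyokin. Calpains are calcium-dependent cysteine proteases that cut cytoskeletal and membrane proteins at selected sites, and AHNAK is among their known substrates. Calpastatin is the inhibitor of calpains that cells make themselves, and in mammals its gene gives several proteins through alternative promoters and splicing. The RefSeq annotation of the axolotl assembly UKY_AmexF1_1 lists 1 gene with the symbol AHNAK and 1 with the symbol CAST, the calpastatin gene. None of the assembled identifiers could be matched to it, so whether both AHNAK pieces belong to that gene was not tested.

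Both AHNAK pieces were higher in every iMDK limb than in every DMSO limb. Values are TPM, the share of a transcript among all transcripts of a library per unit of length, scaled by the authors with one TMM factor per library. The main transcript of the first piece, c1004206_g1_i1, was at 26.3, 29.0 and 34.1 TPM in iMDK 1, 2 and 3, against 10.3, 15.2 and 10.3 TPM in DMSO 1, 2 and 3. The groups did not overlap, and the lowest iMDK limb lay 1.73 times above the highest DMSO limb. The means were 29.8 ± 3.94 TPM in iMDK and 11.9 ± 2.85 TPM in DMSO (SD, n = 3 each), a log2 difference of 1.30 ± 0.22 on the log2(TPM + 0.5) scale (SE of the limma fit over all transcripts).

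The minor transcript of the same piece, c1004206_g1_i2, was at 5.56, 5.37 and 5.70 TPM in the iMDK limbs, against 1.30, 2.59 and 2.27 TPM in the DMSO limbs. It varied least among the treated limbs, with a coefficient of variation of 2.96% in iMDK and 32.7% in DMSO. Its log2 difference was 1.28 ± 0.31 (SE), close to that of the main transcript. The main transcript held 82.6, 84.4 and 85.7% of the gene sum in the iMDK limbs and 88.8, 85.4 and 81.9% in the DMSO limbs, and these shares overlapped. Both isoforms of this piece were thus higher in iMDK in similar proportion. The sum of c1004206_g1 was 35.3 ± 4.04 TPM in iMDK and 13.99 ± 3.34 TPM in DMSO, a ratio of means of 2.52.

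The second piece, c1073873_g2, has the single transcript c1073873_g2_i1. It was at 34.7, 41.2 and 52.7 TPM in iMDK 1, 2 and 3, against 16.9, 25.5 and 22.9 TPM in DMSO 1, 2 and 3. The groups were again apart, with less room between them, since the lowest iMDK limb was 1.36 times the highest DMSO limb. The means were 42.9 ± 9.13 TPM in iMDK and 21.8 ± 4.42 TPM in DMSO (SD, n = 3 each), a log2 difference of 0.96 ± 0.24 (SE) and a ratio of means of 1.97. Epidermal marker genes differed among themselves. Of 12 gene sums 10 had a log2 difference above 0 and 2 below, with a median of 0.42, and 0 passed limma. Other marker sets also leaned upward, with 5 of 5 tested gene sums above 0 for connective tissue (median 0.47). For macrophage and osteoclast genes 4 of 5 were above 0 (median 0.32). The largest epidermal difference was that of TGM1, named after its value was seen. The gene sum of TGM1 (TGM1_CANFA, c1089078_g8), the transglutaminase of the cornified envelope of keratinocytes, was 63.3 ± 12.99 TPM in iMDK and 11.4 ± 6.74 TPM in DMSO, without overlap (log2 2.55 ± 0.39, limma adjusted p = 0.132), and its part in the AHNAK values was not tested.

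**Figure D1:**
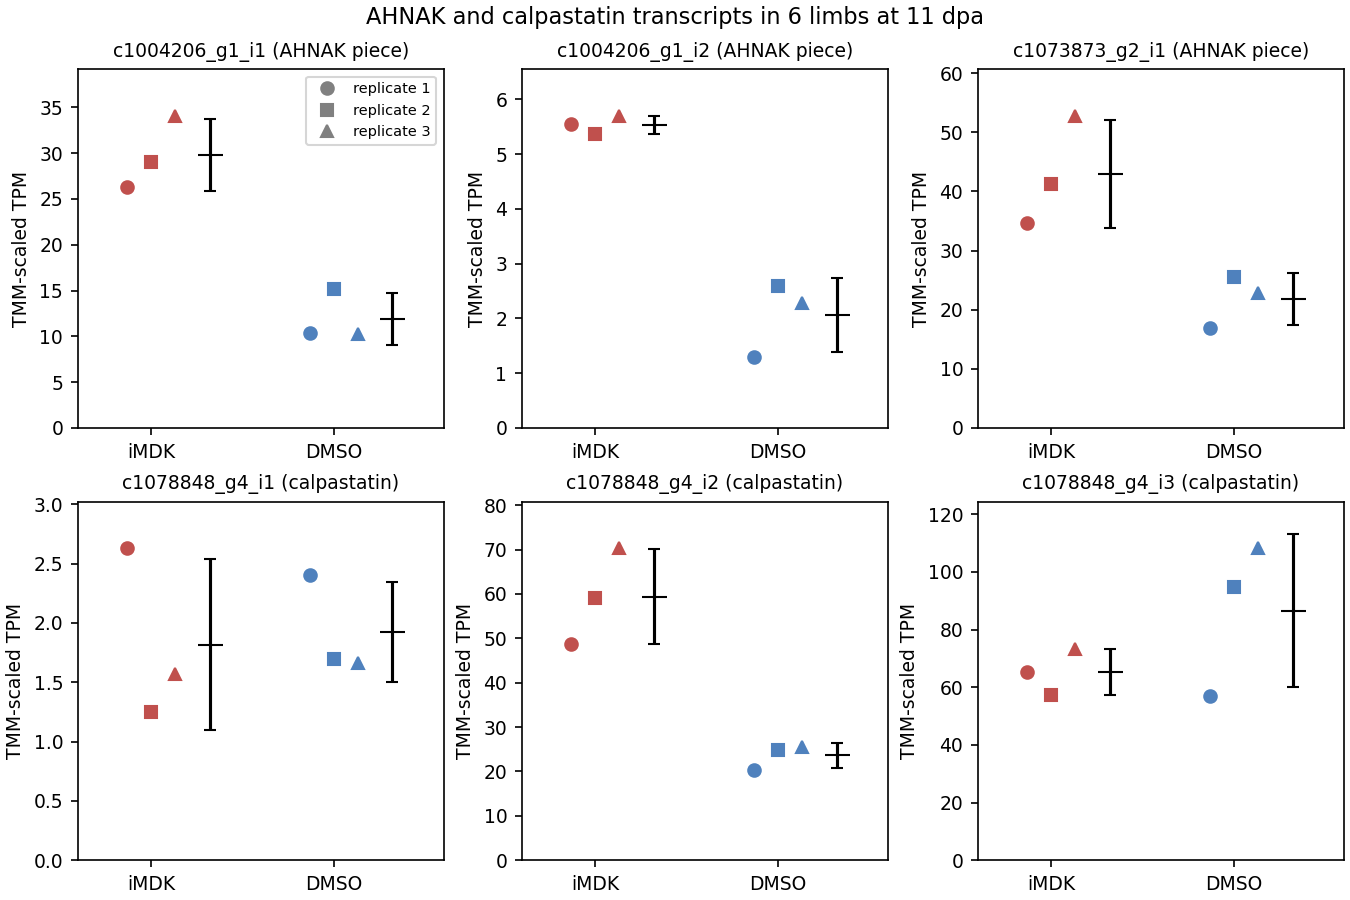
TMM-scaled TPM of the 6 transcripts in each limb (1 symbol per replicate number, iMDK in red, DMSO in blue; bars give the mean and SD, n = 3). Symbols of the groups are apart for the 3 AHNAK transcripts and for c1078848_g4_i2, and overlap for c1078848_g4_i1 and c1078848_g4_i3.

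The pieces followed each other from limb to limb. In both, iMDK 3 was highest, followed by iMDK 2, iMDK 1, DMSO 2, DMSO 3 and DMSO 1. Pearson's r of log2(sum + 0.5) over the 6 limbs was 0.96, a description only, since much of it is the gap between the groups and both pieces come from the same libraries. Neighbours in this order were often close: the c1004206_g1 sum was 31.8 TPM in iMDK 1 and 34.4 TPM in iMDK 2, and 12.5 TPM in DMSO 3 and 11.6 TPM in DMSO 1, less apart than the SD of either group.

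The ratio between the pieces was not constant. The c1004206_g1 sum was 0.917, 0.835 and 0.754 times the c1073873_g2 sum in iMDK 1, 2 and 3, against 0.689, 0.698 and 0.547 times in DMSO 1, 2 and 3. All 3 iMDK limbs thus had more of the first piece relative to the second than any DMSO limb. The mean log2 ratio was -0.26 ± 0.14 in iMDK and -0.64 ± 0.20 in DMSO (SD, n = 3 each), a difference of 0.38. The log2 differences of the sums themselves were 1.32 for c1004206_g1 and 0.96 for c1073873_g2. The difference in log2 ratio ranged from 0.26 without DMSO 3 to 0.45 without iMDK 3.

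The second AHNAK piece shares its assembly component, c1073873, with 2 more assembled genes, c1073873_g1 and c1073873_g3, which have no blastx name in the tables used here. A component is a cluster of contigs that overlap during assembly and can hold parts of 1 gene or of similar genes. Their values were looked at after those of the AHNAK pieces were known. The sum of c1073873_g3, the most abundant of the component, was 427, 427 and 537 TPM in the iMDK limbs, against 166, 269.9 and 179 TPM in the DMSO limbs. The sum of c1073873_g1 was 68.2, 65.1 and 79.2 TPM in iMDK limbs and 25.5, 37.6 and 22.6 TPM in DMSO limbs. Both were higher in every iMDK limb, with log2 differences of 1.20 ± 0.23 for c1073873_g3 and 1.32 ± 0.22 for c1073873_g1 (SE), against 1.32 ± 0.21 for the sum of the first AHNAK piece. As a multiple of its DMSO mean, each of the 4 assembled genes was highest in iMDK 3, at 2.84 for c1004206_g1, 2.42 for c1073873_g2, 2.77 for c1073873_g1 and 2.62 for c1073873_g3. TPM is per unit of length, but the lengths of these contigs were not available here. Why the levels differ within 1 component was not tested.

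**Figure D2:**
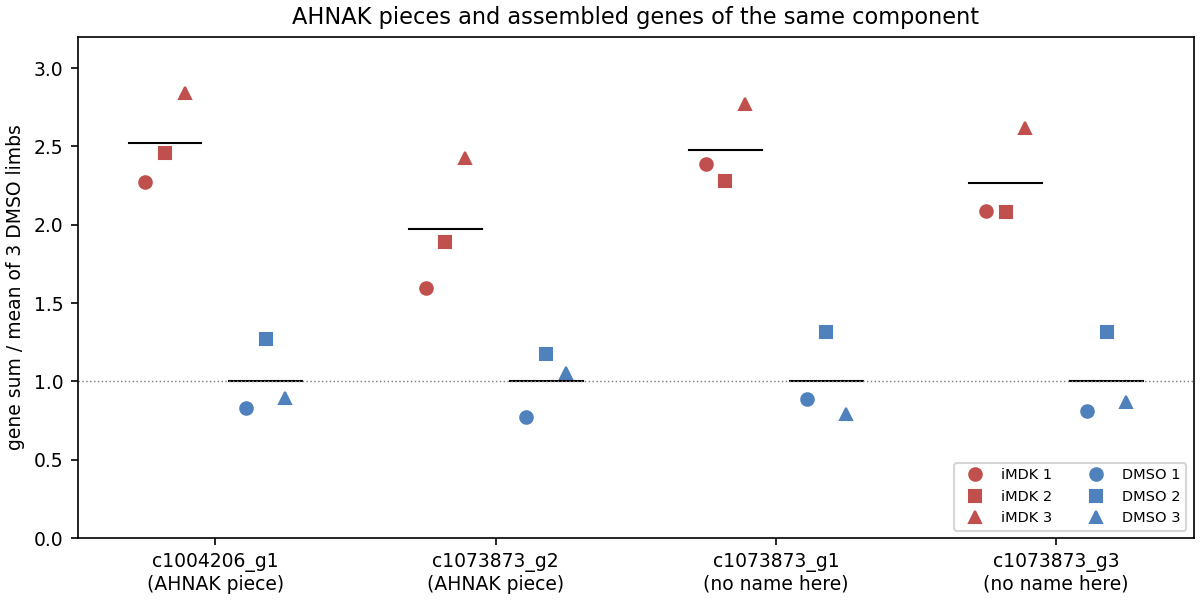
Summed TPM of both AHNAK pieces and of the other assembled genes of component c1073873, each divided by the mean of its 3 DMSO limbs (symbols are limbs, lines are group means). The iMDK means lie at 2.52, 1.97, 2.48 and 2.26 times the DMSO mean from left to right, and every iMDK limb is above every DMSO limb.

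Of the calpastatin RNA 1 transcript was higher in every iMDK limb, while the sum of c1078848_g4 overlapped between the groups. That transcript, c1078848_g4_i2, was at 48.8, 59.1 and 70.3 TPM in iMDK 1, 2 and 3, against 20.3, 24.9 and 25.6 TPM in DMSO 1, 2 and 3. These groups were far apart, the lowest iMDK limb being 1.91 times the highest DMSO limb. The means were 59.4 ± 10.7 TPM in iMDK and 23.6 ± 2.87 TPM in DMSO (SD, n = 3 each), a log2 difference of 1.31 ± 0.20 (SE).

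The other main transcript, c1078848_g4_i3, was at 65.4, 57.3 and 73.1 TPM in the iMDK limbs, against 56.9, 94.6 and 108 TPM in the DMSO limbs. Here the groups overlapped, because DMSO 1 lay below all 3 iMDK limbs while DMSO 2 and DMSO 3 lay above them. The log2 difference was -0.36 ± 0.27 (SE), and with 1 DMSO limb left out it ranged from -0.63 (without DMSO 1) to -0.17 (without DMSO 3). The third transcript, c1078848_g4_i1, was rare, at 2.63, 1.25 and 1.57 TPM in the iMDK limbs and 2.41, 1.69 and 1.66 TPM in the DMSO limbs, with overlapping groups.

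The calpastatin sum was 117, 118 and 145 TPM in the iMDK limbs, against 79.6, 121 and 135 TPM in the DMSO limbs. The groups overlapped and the log2 difference was 0.20 ± 0.23 (SE). It depended on DMSO 1, without which it was -0.03. DMSO 1 was the lowest limb for the sum, as it was for both AHNAK pieces.

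Within this sum c1078848_g4_i2 held 41.8, 50.2 and 48.5% in iMDK 1, 2 and 3, against 25.5, 20.6 and 18.9% in DMSO 1, 2 and 3. The share of c1078848_g4_i3 was 55.97, 48.7 and 50.4% in the iMDK limbs and 71.5, 78.05 and 79.9% in the DMSO limbs. In the treated limbs both isoforms were thus at similar levels, while c1078848_g4_i3 held most of the sum in every DMSO limb. The ratio of c1078848_g4_i2 to c1078848_g4_i3 was 0.913 ± 0.148 in iMDK and 0.286 ± 0.0632 in DMSO (SD, n = 3 each). The mean share of c1078848_g4_i2 was 25.2 percentage points higher in iMDK. Among 18178 tested transcripts of 7449 assembled genes with at least 2 tested transcripts, 580 (3.19%) had a rise in share that was at least as large and without overlap, so shifts of this size also occurred in other assembled genes. kallisto divides reads among isoforms with shared sequence, and the part of that division in these shares was not tested.

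**Figure D3:**
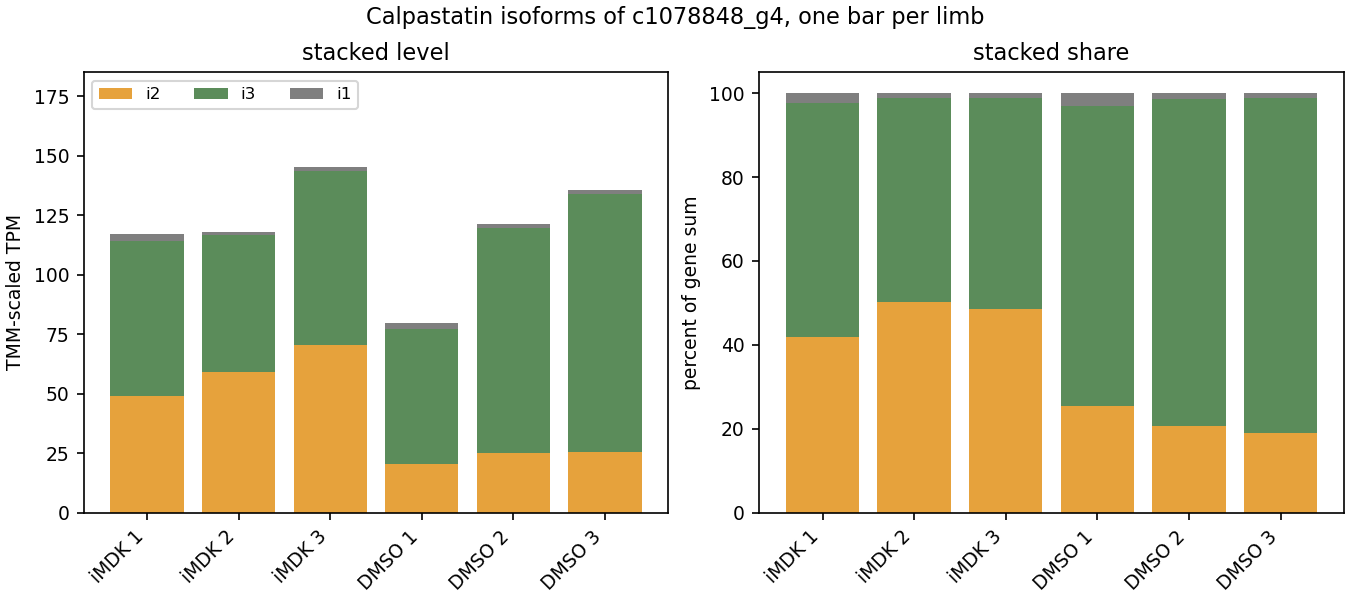
Calpastatin transcripts of c1078848_g4 in each limb, stacked as TMM-scaled TPM (left) and as percent of the gene sum (right), with 3 iMDK limbs before 3 DMSO limbs. The c1078848_g4_i2 share is 41.8 to 50.2% in iMDK and 18.9 to 25.5% in DMSO, while the stacked totals overlap.

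The calpastatin component c1078848 also holds c1078848_g3, without a blastx name in the tables used here and looked at after the members. Its sum was 156, 158 and 182 TPM in the iMDK limbs and 74.5, 121 and 126 TPM in the DMSO limbs, without overlap, a log2 difference of 0.66 ± 0.23 (SE). Its transcripts c1078848_g3_i3 and c1078848_g3_i4 were both higher in every iMDK limb, at 129 ± 12.07 TPM and 26.4 ± 1.56 TPM in iMDK, against 81.97 ± 26.8 TPM and 17.9 ± 1.20 TPM in DMSO. A further tested transcript, c1078848_g3_i1, overlapped, at 9.54 ± 3.12 TPM in iMDK and 7.21 ± 1.88 TPM in DMSO (log2 difference 0.36 ± 0.33, SE). The remaining assembled genes of the component were listed at 0 in 5 of the 6 limbs and stood at 0.706 TPM (c1078848_g1) and 0.298 TPM (c1078848_g2) in DMSO 1. The total of the whole component was 273, 276 and 327 TPM in the iMDK limbs and 155, 242 and 261 TPM in the DMSO limbs. Unlike the sum of the named c1078848_g4, this total did not overlap between the groups, and whether c1078848_g3 belongs to the calpastatin gene was not tested.

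None of the 6 transcripts passed the thresholds of the study, an adjusted p under 0.05 and a fold above 2 (0 of 6 by limma, against 0.541% of the 51718 tested transcripts). The groups did not overlap and iMDK was higher for 4 of the 6, against 8.59% of tested transcripts; the members were picked on this contrast, so nothing is read from that count. Of the 3 gene sums 0 passed, against 0.0541% of 44342, and 2 were higher without overlap, against 8.38%. Log2 differences larger than that of c1078848_g4_i2 were found for 3434 tested transcripts (6.64%), and larger than that of c1004206_g1_i1 for 3463 (6.70%). The median log2 difference was -0.02 over all tested transcripts and -0.01 over all gene sums. Related genes were read by the same fits, with p-values adjusted over all features tested; an unadjusted p under 0.05 was found for 11.2% of all tested transcripts and 10.7% of all gene sums.

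The calpain list held 3 assembled genes, all tested as gene sums. Only genes with a blastx name here could be listed, so other calpains may be missing from it. Calpastatin is known to inhibit calpain-1, a dimer of a catalytic and a small subunit. CAN1 (CAN1_RAT, c1091239_g5), the catalytic subunit of calpain-1, was at 2.60, 1.45 and 3.11 TPM in iMDK limbs and 2.60, 2.80 and 4.07 TPM in DMSO limbs, with overlap (log2 difference -0.37 ± 0.35, limma adjusted p = 0.825). CPNS1 (CPNS1_BOVIN, c1083026_g4), the small regulatory subunit, summed to 1302, 1015 and 1197 TPM in iMDK limbs and 1094, 808 and 1269 TPM in DMSO limbs (log2 difference 0.16 ± 0.25, limma adjusted p = 0.852). Its named transcript c1083026_g4_i4, a small part of that sum, was at 9.90 ± 6.08 TPM in iMDK and 22.3 ± 1.06 TPM in DMSO. It was lower in every iMDK limb than in every DMSO limb, and did not pass (limma adjusted p = 0.2602). CAN15 (CAN15_MOUSE, c1069508_g1), an atypical calpain outside that pair, summed to 1.29 ± 0.454 TPM in iMDK and 1.24 ± 0.333 TPM in DMSO (limma adjusted p = 0.979). Its named transcripts, c1069508_g1_i1 and c1069508_g1_i2, were at 0 in every limb, except c1069508_g1_i1 at 0.008 TPM in iMDK 3. No calpain gene sum passed limma (0 of 3, and 0 with an unadjusted p under 0.05), while for transcripts 0 of 2 passed and 1 had an unadjusted p under 0.05.

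Spectrins and filamins are cytoskeletal proteins that calpains cut. SPTN1 (SPTN1_HUMAN, c1079384_g6), the non-erythroid alpha spectrin, summed to 23.4 ± 3.13 TPM in iMDK and 23.9 ± 6.11 TPM in DMSO, with overlapping groups (log2 -0.01 ± 0.23, limma adjusted p = 0.992). Its named transcript c1079384_g6_i2 was at 1.11 ± 1.07 TPM in iMDK and 3.24 ± 1.34 TPM in DMSO (limma adjusted p = 0.513). FLNA (FLNA_HUMAN), an actin crosslinker, summed to 65.2 ± 10.02 TPM in iMDK and 66.5 ± 23.2 TPM in DMSO for c1091081_g5. A second FLNA piece, c1091260_g3, summed to 28.8 ± 4.20 TPM in iMDK and 26.7 ± 10.55 TPM in DMSO. Of 3 tested gene sums 0 passed limma and 0 had an unadjusted p under 0.05, and their median log2 difference was 0.02; the same counts were 0 of 3 and 0 for transcripts.

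Annexins and other calcium, actin or membrane proteins had mostly positive log2 differences, none of which passed. The annexin and the S100 protein named above as partners of AHNAK were not in this list. S100P (S100P_HUMAN, c1081900_g1), a small calcium-binding protein of the S100 family, summed to 7901, 4198 and 6462 TPM in iMDK limbs, against 2109, 1444 and 3751 TPM in DMSO limbs. The groups did not overlap, and the fit gave a log2 value of 1.41 ± 0.46 (limma adjusted p = 0.329). ACTG (ACTG_XENTR, c998939_g2), a cytoplasmic actin of the kind AHNAK binds, summed to 851 ± 232 TPM in iMDK and 579 ± 113 TPM in DMSO (limma adjusted p = 0.571). ANXA1, an annexin that binds membranes in the presence of calcium, was measured as c1091961_g2 at 1054 ± 119.9 TPM in iMDK and 915 ± 149.6 TPM in DMSO, and as c1092813_g3 at 22.1 ± 2.29 TPM in iMDK and 15.6 ± 4.45 TPM in DMSO (limma adjusted p = 0.509). Of 9 gene sums 8 had a log2 difference above 0, with a median of 0.40. Of these sums 0 passed limma and 1 had an unadjusted p under 0.05. Of the 9 named transcripts 7 were above 0, with a lower median of 0.21, and the counts were again 0 and 1. For CAV1 (CAV1_DIDVI, c1083265_g7) the sum was at 0.43 ± 0.23 and the named transcript c1083265_g7_i3 at -0.47 ± 0.62.

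Cytolinkers and the cortical cytoskeleton were measured as 10 gene sums. PLEC (PLEC_MOUSE), plectin, a giant linker of intermediate filaments, summed to 24.1, 23.1 and 24.6 TPM in iMDK limbs and 9.80, 18.3 and 16.8 TPM in DMSO limbs for c1091472_g1, without overlap (log2 difference 0.71 ± 0.25, limma adjusted p = 0.377). The named transcript of c1091472_g1, c1091472_g1_i9, is a small part of that sum. It overlapped between the groups, at 1.73 ± 0.966 TPM in iMDK and 0.778 ± 0.681 TPM in DMSO (limma adjusted p = 0.747). A second plectin piece, c1090666_g1, overlapped between the groups at 7.68 ± 0.654 TPM in iMDK and 6.46 ± 1.82 TPM in DMSO. ACTN4 (ACTN4_BOVIN, c1064319_g1), an alpha-actinin that bundles actin, summed to 184, 173 and 195 TPM in iMDK limbs and 129.5, 129 and 163 TPM in DMSO limbs (log2 difference 0.39 ± 0.16, limma adjusted p = 0.444). Its named transcript c1064319_g1_i1 was at only 0.644 TPM in iMDK and 0.108 TPM in DMSO, and was not tested. ADDG (ADDG_HUMAN, c1081920_g2), gamma-adducin, which caps actin at the spectrin cortex, summed to 16.95 ± 1.01 TPM in iMDK and 13.6 ± 1.84 TPM in DMSO (limma adjusted p = 0.608). Its named transcript c1081920_g2_i12, at 0.533 TPM in iMDK and 0.459 TPM in DMSO, was not tested either. E41L2 (E41L2_HUMAN, c1055988_g4), a protein 4.1 relative at the spectrin cortex, had the smallest p among the list's transcripts. Its transcript c1055988_g4_i1 was lower in every iMDK limb, at 4.09 ± 0.810 TPM in iMDK and 7.28 ± 2.12 TPM in DMSO (limma adjusted p = 0.444). Its gene sum was 16.6 ± 2.05 TPM in iMDK and 15.6 ± 2.33 TPM in DMSO. Of the 10 gene sums 8 were above 0, with a median of 0.28; 0 passed limma and 2 had an unadjusted p under 0.05. Of 7 tested transcripts 0 passed and 1 had an unadjusted p under 0.05.

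Over the 4 lists 0 of 25 gene sums passed limma, 3 had an unadjusted p under 0.05 and the median log2 difference was 0.18. At the level of transcripts 0 of 21 passed, 3 had an unadjusted p under 0.05 and the median was 0.08.

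**Figure D4:**
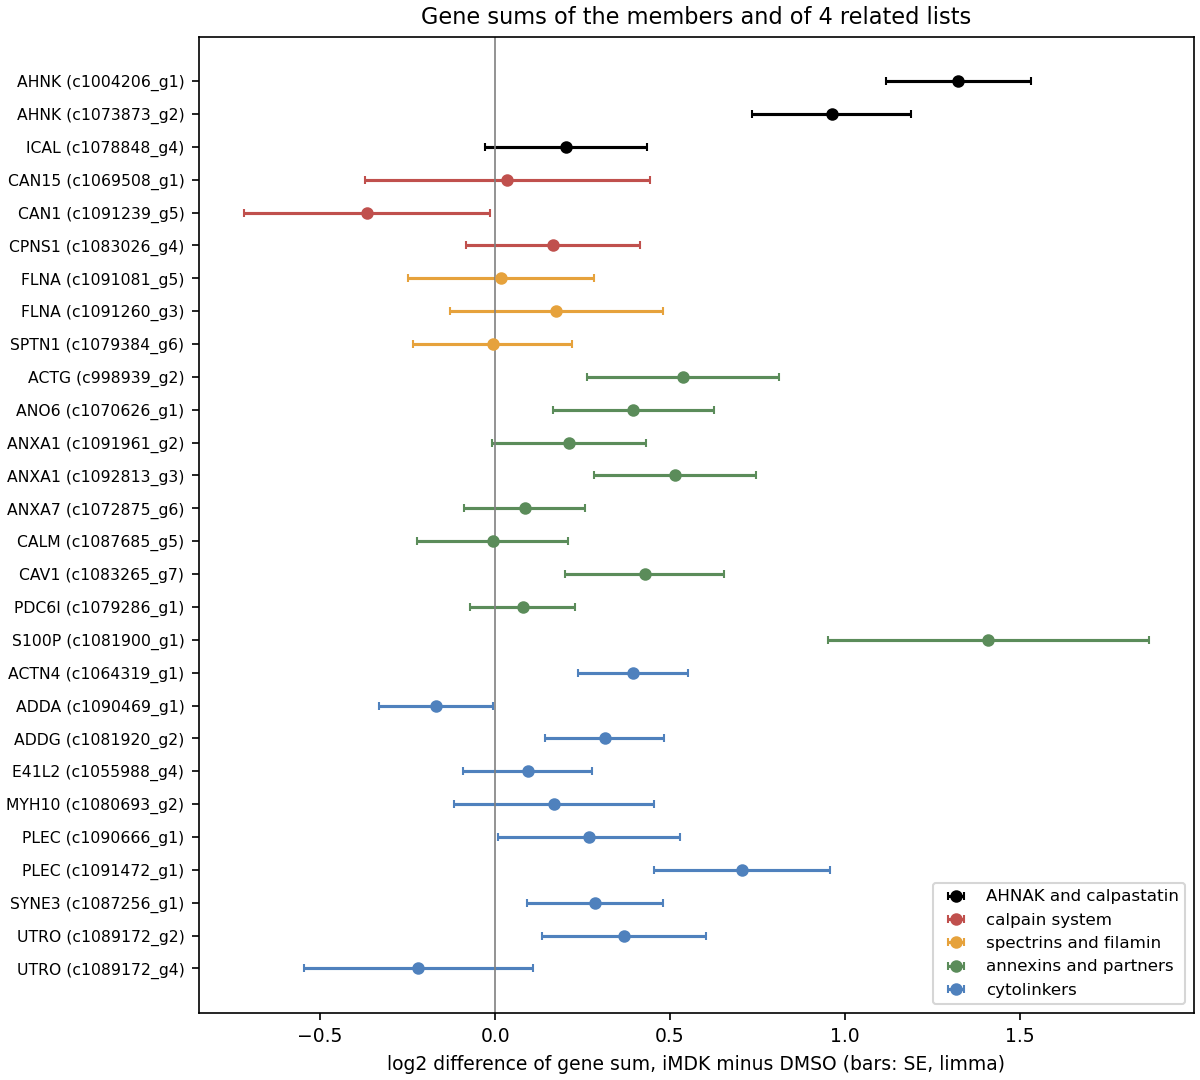
Log2 difference of gene sums, iMDK minus DMSO, with the SE of the limma fit, for the 3 assembled genes described here (black) and the 25 tested gene sums of 4 lists. The AHNAK pieces lie at 1.32 and 0.96 and calpastatin at 0.20; S100P lies at 1.41, and no point passed the test.

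Among the 1256 assembled genes compared, which have a blastx name and a tested sum, those most like c1004206_g1 over the 6 limbs were, by Pearson's r of log2(sum + 0.5), PICA (PICA_MOUSE, c1092594_g2; r = 0.99), M4K4 (M4K4_MOUSE, c1089370_g4; 0.98), DOCK4 (DOCK4_HUMAN, c1079831_g1; 0.96), WNK1 (WNK1_HUMAN, c1088530_g5; 0.96) and the other AHNAK piece (0.96). PICA is a clathrin adaptor of endocytosis, M4K4 and WNK1 are kinases, and DOCK4 activates a small GTPase. PICA was at 8.70, 8.52 and 9.58 TPM in iMDK limbs and 4.80, 6.07 and 5.37 TPM in DMSO limbs, again without overlap. For c1073873_g2 the list held PICA (0.97), M4K4 (0.97), the first AHNAK piece (0.96), the hemoglobin chain HBA (HBA_TARGR, c1092570_g1; 0.96) and WNK1 (0.95).

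The calpastatin sum had other companions. They were PKP3 (PKP3_BOVIN, c1079342_g1; r = 0.99), a desmosomal plakophilin, EP15R (EP15R_HUMAN, c1068424_g1; 0.97), an endocytic protein, RBM47 (RBM47_PONAB, c1081960_g1; 0.97), an RNA-binding protein, RBG1L (RBG1L_HUMAN, c1083473_g1; 0.97), a GTPase-activating protein, and the mucin MUC16 (MUC16_HUMAN, c1079703_g2; 0.96). PKP3 was at 24.5, 21.4 and 31.8 TPM in iMDK limbs and 12.6, 25.5 and 27.7 TPM in DMSO limbs, low in DMSO 1 like calpastatin. These r values rest on 6 limbs that share libraries and treatment, and are descriptions.

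The libraries held from 126965 transcripts above 0 in iMDK 1 to 198094 in DMSO 2, and TPM keeps no read totals, so depth is unknown. Marker genes of a limb with skin were present. Summed over 12 epidermal genes (keratins, plakophilins, TGM1, LAMB3 and CO7A1) they reached 12746 to 14734 TPM in iMDK limbs and 9019 to 13379 TPM in DMSO limbs, with overlap, and 10 of the 12 had log2 differences above 0. Keratins make up most of that sum. Besides TGM1, the gene sums of the keratins K1C17 and K2C8 were higher in iMDK without overlap, as were 8.38% of all tested gene sums. K1C17 (K1C17_BOVIN, c1083200_g2) was at 1307 ± 95.5 TPM in iMDK and 727 ± 394 TPM in DMSO. K2C8 (K2C8_XENLA, c1085880_g6) was at 468 ± 89.7 TPM in iMDK and 284 ± 67.4 TPM in DMSO. The transcript carrying the K2C8 name, c1085880_g6_i5, was at 0.248 TPM in iMDK and 23.6 TPM in DMSO (70.0 TPM in DMSO 2). It was not tested, so the higher K2C8 sum comes from isoforms without a name here. The 2 sums below 0 were K1C24 with K1C4 (c1086285_g2, log2 difference -0.15 ± 0.23) and K2C5_PANTR (c1058752_g1, -0.02 ± 0.27). A second K2C5 piece, K2C5_RAT (c1091062_g2), was at 0.49 ± 0.37. The K1C19 sum (K1C19_CHICK, c1092323_g3) overlapped. Its transcript c1092323_g3_i3 was lower in every iMDK limb, at 34.2 ± 8.73 TPM in iMDK and 198 ± 132 TPM in DMSO. Its transcript c1092323_g3_i1 overlapped, at 1001 ± 84.1 TPM in iMDK and 648 ± 314 TPM in DMSO. Of the 12 gene sums 0 passed limma (2 with an unadjusted p under 0.05). The 4 hemoglobin genes summed to 36.4 to 74.8 TPM in iMDK limbs and 6.90 to 8.49 TPM in DMSO limbs, without overlap. Of the 4 gene sums 2, HBB1 and HBB2, passed limma (adjusted p = 0.0389 and 0.0492), against 0.0541% of all tested gene sums. HBA (HBA_TARGR, c1092570_g1) was at 5.12 ± 2.41 TPM in iMDK and 0.862 ± 0.238 TPM in DMSO, without overlap. It did not pass (log2 difference 1.98 ± 0.40, limma adjusted p = 0.180). The transcript carrying the HBB2 name, c1069424_g1_i1, was 0 in all 6 limbs, so that sum comes from isoforms without a name here. HBA2 (HBA2_TRICR, c1091849_g1) overlapped, at 4.19 ± 1.32 TPM in iMDK and 4.47 ± 0.649 TPM in DMSO (log2 difference -0.12 ± 0.30). The 5 connective tissue genes (1514 to 1564 TPM in iMDK, 770 to 1876 TPM in DMSO), the 6 macrophage and osteoclast genes (3746 to 5684 TPM in iMDK, 3710 to 4306 TPM in DMSO) and the 2 muscle genes (2.31 to 5.31 TPM in iMDK, 1.11 to 2.64 TPM in DMSO) overlapped. Of the tested gene sums, 5 of 5 for connective tissue and 4 of 5 for macrophage and osteoclast had log2 differences above 0. No marker gene sum was 0 in all 6 limbs. The part of these cell types in the AHNAK and calpastatin values was not tested, and in RNA of homogenized limb tissue more cells of a type cannot be told apart from more RNA per cell.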

How the data were processed

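Libraries of poly(A) RNA were made with the Nextera XT kit. The authors used Trimmomatic for trimming, a Trinity assembly as the reference for kallisto, and DESeq2 for testing; no version is given in the sources used here. The deposited signal holds, for every assembled transcript, its TPM times a library's TMM factor, as the authors computed it. It is not counts, and depth and counting error are unknown.

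Names are blastx hits that the study pairs with 1675 transcripts in tables of its skin flap experiment, of which 927 were tested. These tables hold only annotated transcripts called differentially expressed in that experiment, so other genes have no name here. A gene sum carries the name of a transcript in it, which can be a small part of that sum. Transcripts with at least 1 TPM in at least 3 libraries, and gene sums under the same filter, were taken to log2 after adding 0.5 and fitted by limma 3.58.1 (moderated statistics with an intensity trend, 2-sided; R 4.3.3 with the package data.table, version 1.17.8). Fold changes on this scale understate the change of low transcripts. Calls required a fold above 2 and an adjusted p (Benjamini-Hochberg, over all features) under 0.05. The members and lists were chosen with earlier results of these data known. Named list genes were those called, or up to 3 per list with the smallest p, in either fit, and further members of a list where a second piece of the same gene was tested; the 5 nearest genes per assembled gene were named by r. Marker genes named singly (TGM1, K1C17, K2C8, K1C24 with K1C4, K2C5, K1C19, HBB1, HBB2, HBA, HBA2) were chosen after their values were seen. Groups came from the labels. Pseudocounts, filters, scalings, variance settings, a replicate block and leaving out each library were tried. The procedure was also run on simulated data with independent noise for each transcript and library. Its outcome is not given here, and nothing is read from it. Plots were drawn in Python 3.11.15 (pandas 2.3.3, matplotlib 3.10.9).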

Additional observations from a re-analysis of the deposited data

How the results depend on the processing

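Over 12 alternatives the log2 differences of the AHNAK sums ranged from 1.21 to 1.51 for c1004206_g1 and from 0.79 to 1.10 for c1073873_g2. That of c1078848_g4_i2 ranged from 1.18 to 1.44. The groups of these features do not overlap, so leaving out a limb could not change the sign. The replicate block leaves the difference itself unchanged. Nothing is therefore read from the sign being kept. The calpastatin sum ranged from -0.03 (without DMSO 1) to 0.36, and c1078848_g4_i1 from -0.33 to 0.08. The transcript c1078848_g4_i3 ranged from -0.63 to -0.17. The count of members past the thresholds was 0, and 1 with a filter of at least 5 TPM or with array weights; nothing is read from it, since the members were chosen on this contrast.

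The count of 280 called transcripts was 427 with no filter, 168 with a filter of at least 5 TPM, 1303 without the trend, and 78 to 138 with a library left out (90, 123 and 78 without iMDK 1, 2 and 3; 102, 138 and 120 without DMSO 1, 2 and 3). The count of 24 called gene sums was 9 with a pseudocount of 0.1, 438 with no filter, 14 with TMM undone, 38 under the 5 TPM filter, 820 without the trend and 0 to 3 with a library left out (0, 1 and 3 without iMDK 1, 2 and 3; 1 without any 1 DMSO library). With the replicate number as a block, 30 transcripts and 0 gene sums were called. Limbs with the same number deviated together little (r = 0.06, 0.04 and 0.01). iMDK 1 correlated best with DMSO 1 and iMDK 2 with DMSO 2, but iMDK 3 also with DMSO 2 (0.05). The numbers were therefore not taken as pairs. The block lowered the SE of every member except c1004206_g1_i2 (0.31 to 0.32), for the c1073873_g2 sum from 0.23 to 0.16. In the lists S100P was the only call, 1 transcript and 1 gene sum with no filter (limma adjusted p = 0.0222 and 3.76e-05). The cause of these moves was not tested. With 3 limbs per group and no read totals, small differences cannot be resolved.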
